A study of Schizosaccharomyces pombe with 12 samples.

Results

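The cytosolic ribosome of fission yeast joins a large 60S and a small 40S subunit, each built of ribosomal RNA and a fixed set of small basic proteins. Each finished ribosome carries a copy of nearly every one of these proteins, yet most of them are encoded by duplicated genes, so that several mRNAs may supply a single protein. Ribosomal protein mRNAs are among the most abundant in growing yeast, and in *Schizosaccharomyces pombe* many of their promoters hold a HomolD box, an element that stands in for a TATA box, often with a second element called HomolE. The ribosomal protein genes were selected here by name, as every row whose gene name starts with *rpl* (large subunit) or *rps* (small subunit) and a number. The rule took 140 of 6988 features. Of these, 131 were protein-coding (76 large and 55 small subunit genes), and 9 were antisense RNAs named after a ribosomal protein gene, which are described apart. Genes for mitochondrial ribosomal proteins carry other names and are not included.

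The 12 libraries were of poly(A)+ RNA from wild-type haploid *h-* strain AGP72, and the study's strain notes list auxotrophic markers at *ade6*, *his3*, *leu1* and *ura4*. The 0 h group was grown in YES, a supplemented yeast extract medium, and taken in log phase. Cells moved to ePMGT(+PO4), a defined medium with glutamate and phosphate, gave the 2, 4 and 8 h groups, with 3 libraries at each of the 4 times. The study asked what the change of medium does on its own, without phosphate starvation. YES cultures at the later times were not analysed here, so medium, handling and time in culture cannot be told apart.

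The values are the authors' averages of 3 libraries, in normalized reads (counts divided by size factors). They summed, in units of 1000000, to between 16.8 and 17.6 over all features, and the spread over libraries is known here only as the standard error that each table carries for each feature. A change is the log2 ratio of a later average to the 0 h average, ± its standard error. A gene "rose" or "fell" where a 2-sided normal test of that ratio, adjusted by Benjamini-Hochberg over all features tested, stayed at or under 0.05, with no minimum fold. In bulk RNA of this kind, fewer transcripts in each cell and fewer cells with the transcript cannot be told apart. Of the M cell genes that mark an *h-* strain, 5 of 6 were detected (*mat1-Mc* was listed at 0 at all 4 times). Their summed average was 1967, 2044, 2134 and 3869 normalized reads at 0, 2, 4 and 8 h, and 4 of the 5 tested rose at 8 h. The P cell genes *map2* and *map3* summed to 505, 564, 524 and 520 normalized reads. The part of this rise in the results at 8 h was not tested.

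To show the sequence that these genes share, the DNA just before the annotated transcript start was read from the RefSeq annotation of assembly ASM294v3, in which 131 of 131 members were matched by systematic ID. The first 7 letters of the HomolD box, CAGTCAC, stood in the window from 250 bases before to 50 bases after the transcript start, on either strand, in 121 of 131 members (92.4%) and in 120 of 4975 other coding genes (2.41%). The full 8 letters CAGTCACA, which contain those 7, stood in 84 members (64.1%) and in 1.07% of the others. The HomolE core CCCTACCC stood in 47 members (35.9%) and in 0.683% of the others, and 41 members held both the 7 letters and the HomolE core. By subunit, 93.4% of large and 90.9% of small subunit genes held the 7 letters. A match of letters is a description of the sequence and was not tested for activity.

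The following windows surround the 7 letters, in capitals, for 3 genes that encode one and the same protein, for 3 pairs whose members are compared below, and for the genes with the largest and the smallest change at 8 h. Each reads 5′ to 3′ on the strand of its gene, and a box on the opposite strand appears as GTGACTG.
rpl801: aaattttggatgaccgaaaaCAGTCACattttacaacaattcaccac
rpl802: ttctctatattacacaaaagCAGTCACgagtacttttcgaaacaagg
rpl803: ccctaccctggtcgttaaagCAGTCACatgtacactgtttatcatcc
rpl1201: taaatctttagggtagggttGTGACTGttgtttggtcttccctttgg
rpl1202: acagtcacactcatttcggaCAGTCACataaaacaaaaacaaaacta
rpl3001: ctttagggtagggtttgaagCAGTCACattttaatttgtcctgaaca
rpl3002: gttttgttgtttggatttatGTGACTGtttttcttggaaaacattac
rpl4101: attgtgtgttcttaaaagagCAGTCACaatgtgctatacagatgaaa
rpl4102: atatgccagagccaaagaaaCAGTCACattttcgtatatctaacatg
rpl2801: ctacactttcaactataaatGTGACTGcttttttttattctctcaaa
rpl22: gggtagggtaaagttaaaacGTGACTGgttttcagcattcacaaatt
The *rpl801* window runs from -78 to -32 relative to the transcript start on chromosome I, that of *rpl802* from -86 to -40 on chromosome II, and that of *rpl2801* from -76 to -30 on chromosome II. The windows of *rpl802* and *rpl803* are both from chromosome II, where each lies before a gene of the same protein as *rpl801*. The reversed HomolE core, GGGTAGGG, lies before the box in *rpl1201*, *rpl3001* and *rpl22*, and the forward one at the left end of the *rpl803* window.

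Both elements are marked in the last 100 bases before the transcript start of the following genes, shown because the order of the boxes is easiest to see there.
rps21: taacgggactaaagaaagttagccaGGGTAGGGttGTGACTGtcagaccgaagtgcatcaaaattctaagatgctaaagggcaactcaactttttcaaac
rpl8: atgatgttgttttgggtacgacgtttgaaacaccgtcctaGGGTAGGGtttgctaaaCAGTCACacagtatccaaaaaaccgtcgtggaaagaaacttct
rpl1902: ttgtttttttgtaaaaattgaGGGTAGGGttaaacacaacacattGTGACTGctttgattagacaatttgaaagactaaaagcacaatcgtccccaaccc
The 7 letters began 51 bases before the transcript start at the median (quartiles 47 and 56), and in 117 of 121 members they began between 40 and 70 bases before it. They read forward in 77 members and backward in 44. The HomolE core lay further out, at a median of 69 bases before the start.

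**Figure D1:**
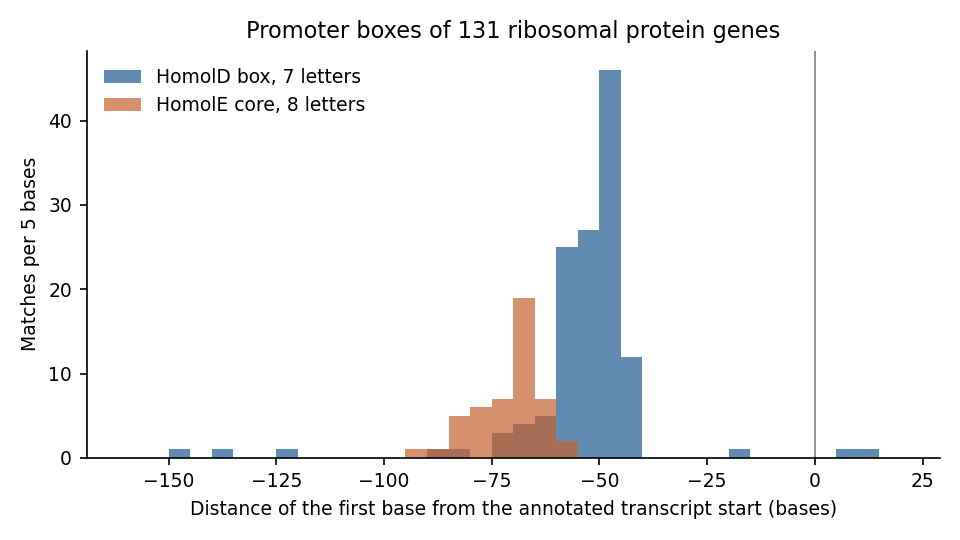
Number of matches (vertical axis, per 5 bases) of the 7-letter HomolD box and of the 8-letter HomolE core by the distance of their first base from the annotated transcript start (horizontal axis, bases), over 131 ribosomal protein genes. The HomolD matches pile up near 51 bases before the start and the HomolE matches near 69.

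One box can stand between divergent genes. *rpl13*, which had the highest average of all members at 0 h, and *rps1602* lie back to back on chromosome I, and their windows are the same stretch read from opposite strands.
rpl13: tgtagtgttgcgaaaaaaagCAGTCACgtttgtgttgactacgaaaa
rps1602: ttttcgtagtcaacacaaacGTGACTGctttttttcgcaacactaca
The 7 letters were not found in 10 members, among them *rps1401*, *rpl31* and *rps2302*. By location, 58 members lie on chromosome I, 48 on chromosome II and 25 on chromosome III, and 63 of the 131 have no intron.

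In the authors' normalized reads, ribosomal protein mRNAs as a class dipped at 2 h and stood close to their YES level at 4 h. They were lower again at 8 h. How close they stood at 4 h depended on the scaling, as given below. All changes were small, and no member reached a 2-fold change at any time. At 2 h, 88 of 131 members fell, 0 rose and 43 did not pass, where 15.1% of all 6148 features tested fell and 18.2% rose. At 4 h, 11 fell and 0 rose, against 17.5% and 20.8% of all features. At 8 h, 119 fell and 0 rose, against 23.8% and 26.3%. At an unadjusted p of 0.05 or less, 1, 0 and 0 members were higher at the later times, and 102, 25 and 124 were lower. The members' median log2 ratios were -0.17, -0.06 and -0.25 in that order of times, where those of other coding genes were 0.00, 0.01 and 0.04. In percent, the median member stood 11.2% below its 0 h average at 2 h, 4.35% below at 4 h and 16.0% below at 8 h. At 8 h the ratio was below 0 for 131 of 131 members, at 2 h for 120 and at 4 h for 117. All 131 passed the filter of 10 normalized reads in either group, since the lowest average of any member was 1026 normalized reads. The 3 comparisons share the 0 h libraries.

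Ribosomal protein mRNAs took 16.6%, 15.0%, 15.3% and 14.1% of all normalized reads at the 4 times. Relative to 0 h, their summed average changed by -10.8%, -3.99% and -14.9%. The size of the change at 4 h depended on how the groups were scaled. With the averages scaled to the same sum over features other than members, 74 members fell at 4 h and the median log2 ratio was -0.14, and with the sum over all features 48 fell and the median was -0.12. Under these scalings 771 and 863 of all features rose at 4 h, and 1965 and 1667 fell. At 2 h, scaling to the same sum over all features gave 824 falls and 1234 rises over all features, with 82 members that fell. The standard errors also matter, because with all of them multiplied by 1.5, 11 members fell at 2 h, 0 at 4 h and 82 at 8 h. Fewer of all features also fell at 2 and 4 h in that setting, and the closing section gives those counts.

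**Figure D2:**
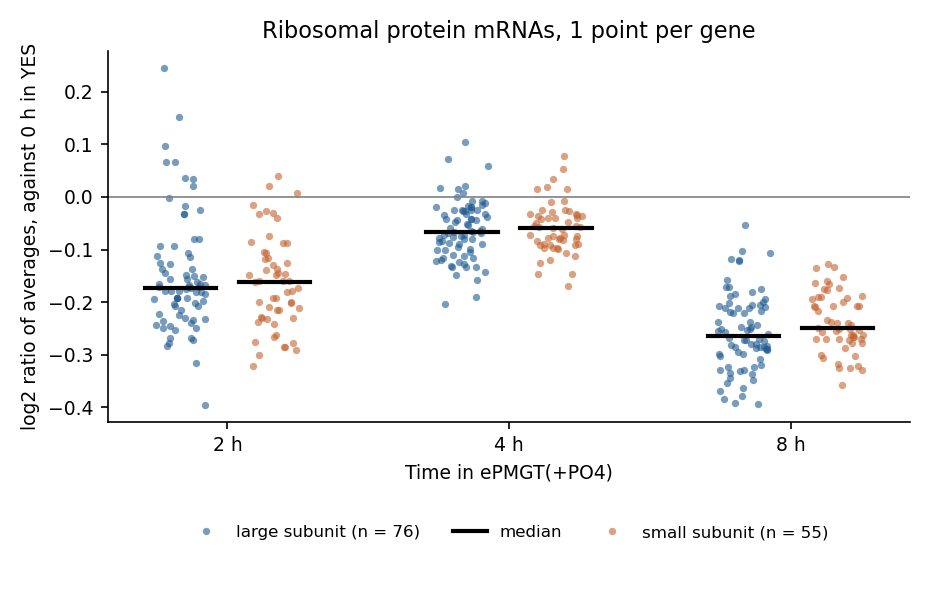
Log2 ratio of the average at 2, 4 and 8 h to the 0 h average (vertical axis) for each of 76 large and 55 small subunit genes, 1 point per gene, with a bar at the median. The medians lie between -0.17 and -0.16 at 2 h, near -0.06 at 4 h and between -0.26 and -0.25 at 8 h, and all points are below 0 at 8 h.

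The ratio of 1 later time to another leaves out the 0 h averages, though its standard error still draws on the comparisons with 0 h. From 2 to 4 h, 15 members rose and 0 fell, against 8.43% and 8.47% of all features, with a median of 0.10 and 115 of 131 ratios above 0. Named after their values were seen, *rps1102* and *rps1101*, which encode the same small subunit protein S11, were among the 15 (0.25 ± 0.08, adjusted p = 0.0102, and 0.21 ± 0.07, adjusted p = 0.0290). With the averages scaled to the same sum over all features, 0 members rose and 5 fell between these times, and the median was 0.033, while 248 of all features rose and 1265 fell. With the standard errors multiplied by 1.5, 0 members rose. From 4 to 8 h, 87 members fell and 0 rose, against 14.7% and 11.1% of all features, and the median was -0.18. With the same sum over all features 58 members fell, and 1275 of all features rose and 604 fell. From 2 to 8 h, 47 fell and 0 rose, against 20.7% and 19.6%, and the median was -0.09. The standard errors of these 3 comparisons were rebuilt from the averages and dispersions, as the processing section says.

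Large and small subunit mRNAs had near-equal medians against 0 h, and less so from 2 to 8 h. Of 76 large subunit genes, 53 fell at 2 h, 9 at 4 h and 66 at 8 h, with medians of -0.17, -0.07 and -0.26. Of 55 small subunit genes, 35 fell at 2 h, 2 at 4 h and 53 at 8 h, with medians of -0.16, -0.06 and -0.25. From 2 to 8 h, 33 large subunit genes fell, with a median of -0.10, and 14 small subunit genes, with a median of -0.05. The shares of all features that fell were 15.1%, 17.5% and 23.8% at 2, 4 and 8 h, and 20.7% from 2 to 8 h. Summed over genes, there were 1.32 large subunit reads for each small subunit read at 0 h, and the ratio stood at 1.32, 1.32 and 1.31 after the change of medium. No test of the subunit difference was made, because the genes share their libraries.

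The largest falls at 2 h belonged to genes of both subunits. *rpl801* encodes L8/L2, a large subunit protein near the peptidyl transferase centre, and averaged 36823 normalized reads at 0 h, 28001 at 2 h, 34348 at 4 h and 32471 at 8 h. It fell by 24.0% at 2 h (-0.40 ± 0.13, adjusted p = 0.00733), with the largest standard error of any member, and at 4 and 8 h its ratios of -0.10 and -0.18 did not pass. Its paralogue *rpl802* averaged 13633, 10958, 12614 and 10554 normalized reads, and fell at 2 h (-0.32 ± 0.08, adjusted p = 0.000312) and at 8 h (-0.37 ± 0.08, adjusted p = 6.85e-06).

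In the small subunit, *rps001*, which encodes the S0 protein, averaged 20158, 16138, 18564 and 16933 normalized reads at the 4 times and fell at 2 h (-0.32 ± 0.10, adjusted p = 0.00460). *rps1001*, which encodes S10, averaged 15272, 12405, 13584 and 12825 normalized reads. It fell at 2 h (-0.30 ± 0.05, adjusted p = 4.39e-08), 4 h (-0.17 ± 0.05, adjusted p = 0.00340) and 8 h (-0.25 ± 0.05, adjusted p = 2.74e-06), and of the small subunit genes only *rps1801* also fell at 4 h. *rps2601*, which encodes S26, averaged 13043, 10661, 11952 and 10444 normalized reads and fell at 2 h (-0.29 ± 0.07, adjusted p = 0.000432). Both *rps001* and *rps2601* also fell at 8 h, when the average of *rps2601* was lowest. These genes were picked for their fall at 2 h, and a higher average at 4 h than at 2 h was seen in 115 of 131 members.

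Of the 11 members that fell at 4 h, the 5 with the largest changes were *rpl1202*, *rpl3402*, *rps1001*, *rpl702* and *rpl1101*. *rpl1202* encodes L12, which sits at the base of the ribosomal stalk, and averaged 4570, 3879, 3968 and 3517 normalized reads. It fell at 4 h (-0.20 ± 0.05, adjusted p = 0.00104) and at 8 h (-0.38 ± 0.05, adjusted p = 4.93e-11), but 73.7% of the 51-base words in its exons occur elsewhere in the genome, chiefly in its paralogue, so that its reads may be split between them. *rpl3402*, which encodes L34, averaged 4846, 4322, 4247 and 3857 normalized reads and fell at 4 h (-0.19 ± 0.05, adjusted p = 0.000846). *rpl702*, which encodes a form of L7, averaged 16454, 14409, 14746 and 12967 normalized reads (-0.16 ± 0.05 at 4 h, adjusted p = 0.00450). *rpl1101*, which encodes L11, a protein that joins the ribosome with 5S rRNA, averaged 14083, 12067, 12711 and 11287 normalized reads (-0.15 ± 0.06 at 4 h, adjusted p = 0.0311). These 5 genes were picked for their fall at 4 h. At that time 17.5% of all features fell, 117 of 131 members had a ratio below 0 and 120 members did not pass.

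At 8 h the largest falls were in large subunit genes. *rpl2801*, which encodes L27/L28, averaged 11984, 10752, 11012 and 9121 normalized reads, and fell by 23.9% at 8 h (-0.39 ± 0.05, adjusted p = 5.18e-13). *rpl1902*, which encodes L19, averaged 27760, 24268, 25134 and 21163 normalized reads and fell at all 3 times, by 23.8% at 8 h (-0.39 ± 0.06, adjusted p = 3.57e-11). *rpl3702*, which encodes L37, averaged 10654, 9455, 10595 and 8169 normalized reads. Its 4 h ratio did not pass (-0.01 ± 0.05, adjusted p = 0.919), and it fell by 23.3% at 8 h (-0.38 ± 0.05, adjusted p = 1.65e-12).

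The 12 members that did not pass at 8 h were *rpl1001*, *rpl13*, *rpl22*, *rpl301*, *rpl302*, *rpl35A02*, *rpl44*, *rpl701*, *rpl801*, *rpl803*, *rps1702* and *rps3*. Their ratios lay between -0.20 and -0.05. *rpl22*, named after its values were seen as the member with the smallest change at 8 h, averaged 23612, 24205, 24611 and 22769 normalized reads, with log2 ratios of 0.04 ± 0.04, 0.06 ± 0.04 and -0.05 ± 0.04 that did not pass (adjusted p = 0.559, 0.279 and 0.318). It was the flattest trajectory of the 8 plotted.

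**Figure D3:**
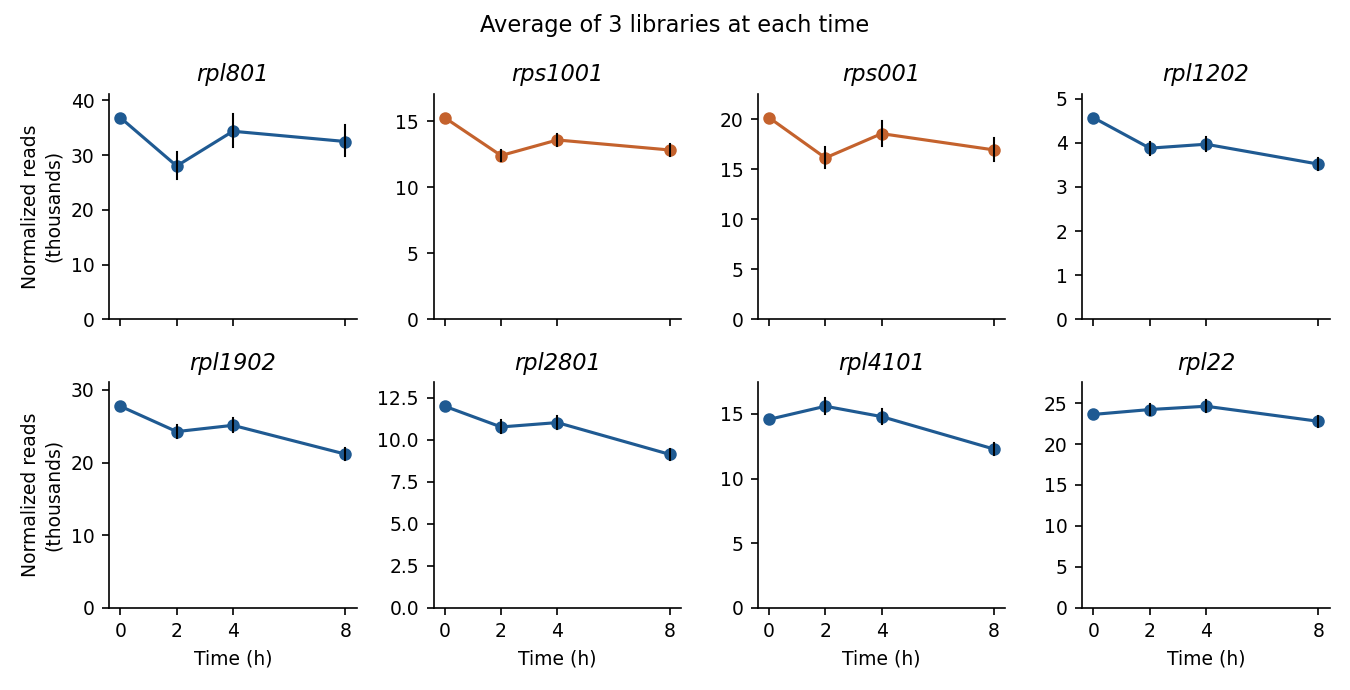
Average of 3 libraries in units of 1000 normalized reads (vertical axes, from 0) at 0, 2, 4 and 8 h (horizontal axes) for 8 members, with large subunit genes in blue and small in orange. Vertical lines at 2, 4 and 8 h span 1 standard error of the log2 ratio to 0 h on either side. *rpl801*, *rps1001* and *rps001* were lowest at 2 h, *rpl1202*, *rpl1902* and *rpl2801* at 8 h, and *rpl4101* was highest at 2 h.

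Most short members did not fall at 2 h. The 2 h ratio ran against coding length, with Spearman's rho of -0.50 over 131 genes (-0.57 over large and -0.43 over small subunit genes), where it was 0.06 over 2936 other coding genes averaging 1000 normalized reads or more at every time. These are correlations across genes of the same libraries, given as a description. Of 21 members with a coding length of 300 bases or less, 4 fell at 2 h and the median was -0.03, against 56 of 76 members of 301 to 600 bases (median -0.18) and 28 of 34 longer ones (median -0.19). At 8 h the order was the other way, with a smaller difference and a rho of 0.20. All 21 of 21 short members fell (median -0.28). In the longer classes 72 of 76 (median -0.26) and 26 of 34 (median -0.21) fell. From 2 to 8 h, 17 of 21 short members fell, 26 of 76 and 4 of 34 of the longer ones. Over all features, 15.1% fell at 2 h, 23.8% at 8 h and 20.7% from 2 to 8 h.

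The shortest coding sequences of all belong to the *rpl41* genes, which encode L41, a peptide of 25 residues at the interface of the subunits. *rpl4101* averaged 14583, 15598, 14796 and 12281 normalized reads. Its ratio was 0.10 ± 0.06 at 2 h (adjusted p = 0.169), and it fell at 8 h (-0.25 ± 0.06, adjusted p = 3.15e-05). *rpl4102* averaged 8691, 10306, 8575 and 6826 normalized reads, with the highest 2 h ratio of any member, 0.25 ± 0.11, which did not pass (adjusted p = 0.0803). It fell at 8 h (-0.35 ± 0.11, adjusted p = 0.00565), and from 2 to 8 h it fell by 33.8%. *rpl29*, which encodes L29, averaged 20284, 20776, 20503 and 16721 normalized reads, with no change that passed at 2 or 4 h and a fall at 8 h (-0.28 ± 0.05, adjusted p = 1.71e-06). *rpl39* encodes L39, which lines the exit tunnel for the nascent chain, and averaged 21740, 21247, 21371 and 19128 normalized reads, with a fall at 8 h only (-0.18 ± 0.04, adjusted p = 3.86e-06).

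**Figure D4:**
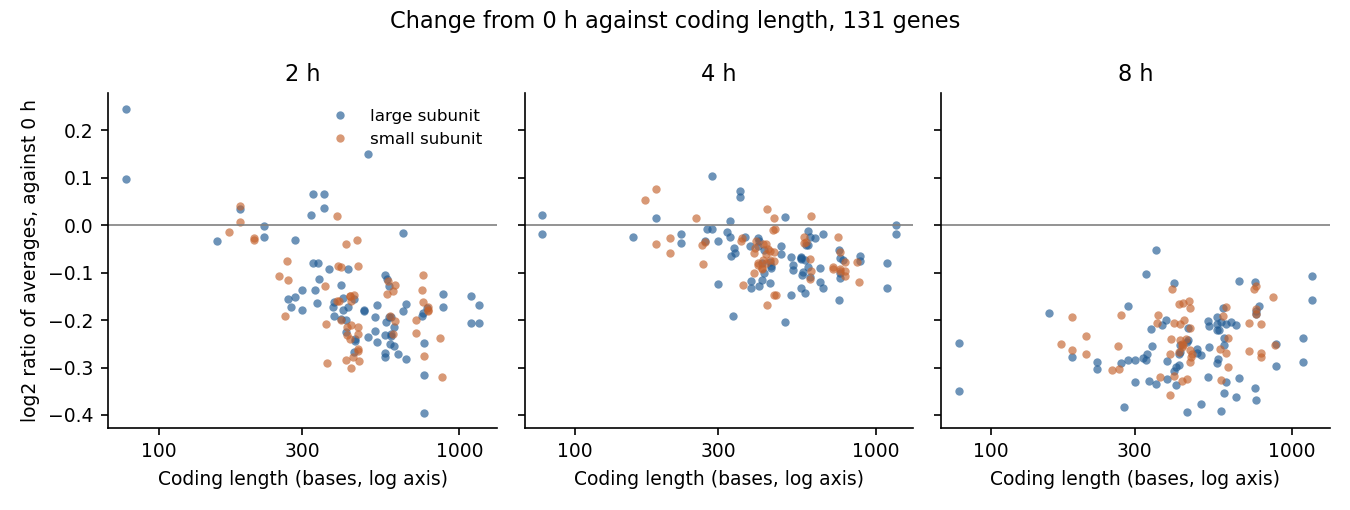
Log2 ratio to 0 h (vertical axis) against coding length in bases (horizontal axis, logarithmic) at 2, 4 and 8 h, for 131 ribosomal protein genes coloured by subunit. At 2 h the median is -0.03 for genes of 300 bases or less and -0.19 for those over 600, with short genes between -0.19 and 0.25, and at 8 h genes of every length lie below 0.

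Members with and without an intron, or with and without a promoter element, were compared only as counts. Over all features, 15.1% fell at 2 h and 23.8% at 8 h. Of 63 members with no intron 53 fell at 2 h (median -0.19), and of 68 with an intron 35 did (median -0.14), while at 8 h 56 and 63 fell. Some of the shortest members, such as *rpl4101* and *rpl4102*, have an intron, and the part of coding length in these counts was not tested. Of the 84 members with the 8-letter HomolD box 60 fell at 2 h and 75 at 8 h, and of the 47 without it 28 and 44 did. The medians of these classes were -0.18 and -0.16 at 2 h and -0.26 and -0.25 at 8 h. Of the 47 members with the HomolE core 29 fell at 2 h and 44 at 8 h, with medians of -0.15 and -0.24, and of the 84 without it 59 and 75 did, with medians of -0.18 and -0.26.

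Ribosomal protein genes differed much more in level than in change. Levels can be compared between genes only per length, and are given as normalized reads per kilobase of annotated exon. At 0 h the median member stood at 34474, the lowest were *rpl1603* at 1143 and *rpl1201* at 2223, and the highest were *rpl42* at 72679, *rps21* at 71975 and *rpl13* at 70633. *rpl1603*, which encodes L13/L16, and *rpl3002*, which encodes L30 and stood at 5383, were low with none of their 51-base words found elsewhere. The level of *rpl1603* depends on the scale. Its ratio to the sum of its paralogues was 0.017 per kilobase of exon and 0.061 per kilobase of coding sequence. *rpl1201*, *rpl1202* (6851) and *rpl302* (6244), the last for L3, share 85.0%, 73.7% and 56.1% of their words with other places in the genome, so their low levels are uncertain. Per kilobase of coding sequence the order at the top was another, led by *rpl4101* (186967), *rpl39* (139359), *rpl4102* (111427), *rps21* (109870) and *rpl29* (109052). The annotated exons of *rpl4101* and *rpl4102* are 346 and 233 bases long, against a coding sequence of 78 bases, and per kilobase of exon the genes stood at 42149 and 37302, in places 33 and 55 of 131. The exon scale was chosen after the data were seen, since reads were counted over exons.

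The 131 genes made up 74 families, of which 20 had a single gene, 51 were pairs and 3 were sets of 3 (*rpl8*, *rpl16* and *rps4*). The *rpl8* set is *rpl801*, *rpl802* and *rpl803*, and the gene called *rpl8* encodes another protein, L7a/L8. Summing paralogues narrowed the range of levels, as sums of unrelated genes would also tend to do on a log scale. Whether paralogues balance each other was not tested. The SD of the log2 level per kilobase of exon at 0 h was 0.89 over genes and 0.50 over families, and the ratio of the highest to the lowest was 63.6 over genes and 11.1 over families. Both ranges rest on uncertain low values. The lowest gene was *rpl1603*, whose level depends on the scale. The lowest families were *rpl12* (9074) and *rpl3* (19186), whose genes share much sequence, and the next was *rpl14* (27313). The median single gene stood at 55926 and the median gene of a set at 30357 normalized reads per kilobase of exon, while the median summed set stood at 62122. At the later times the SD over families lay between 0.50 and 0.51.

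Within a pair, the more abundant gene was 1.72 times the other per kilobase of exon at the median, and in 16 of 51 pairs the ratio was 2 or more. It was largest in *rpl34* (9.23 in favour of *rpl3401*) and *rpl30* (7.16 in favour of *rpl3001*). Per kilobase of coding sequence the order was the other way, with 4.79 in *rpl34* and 7.47 in *rpl30*. In 13 pairs and in the *rpl8* set, the paralogues encode identical proteins from coding sequences that differ. In the same unit, *rpl801* stood at 43681, *rpl803* at 21918 and *rpl802* at 14932, although all 3 encode the same residues.

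The division of reads between paralogues hardly moved. The gene with more reads at 0 h had more reads at all 4 times in 51 of 51 pairs. The share of the first gene moved by at most 2 percentage points from 0 h in 43, 49 and 44 pairs at the later times, and the largest move was 4.85 points. The change of the log2 paralogue ratio had a median size of 0.06, 0.04 and 0.06 at the later times, with a median standard error of 0.08 each time. The 95% interval of the change excluded 0 in 7 pairs at 2 h, 1 at 4 h and 6 at 8 h, without adjustment for the 51 pairs, and with the standard errors multiplied by 1.5 in 1, 0 and 0. These intervals take paralogues as independent over libraries. At 2 h both genes fell in 27 pairs, one in 17 and neither in 7, and at 8 h the numbers were 46, 4 and 1.

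The largest change was in *rpl12*, where *rpl1201* took 21.3%, 26.2%, 24.0% and 22.6% of the reads of the pair at the 4 times. The log2 ratio of *rpl1201* to *rpl1202* had moved by 0.39 at 2 h (95% interval 0.16 to 0.62), by 0.22 at 4 h (-0.01 to 0.45) and by 0.10 at 8 h (-0.13 to 0.33). Their coding sequences are 99.6% identical and encode the same protein, so reads that match both genes may have been split or dropped, and the change in ratio is uncertain.

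The *rps14* pair also encodes one protein, S14, and *rps1401* took 26.2%, 29.6%, 26.2% and 27.6% of its reads at the 4 times. The ratio had moved by 0.25 at 2 h (0.05 to 0.44), because *rps1402* fell (-0.28 ± 0.07, adjusted p = 0.000902) while the 2 h ratio of *rps1401* was -0.04 ± 0.07 (adjusted p = 0.688). *rps1401* is one of the members without the 7 letters, and *rps1402* holds them. In *rpl30*, *rpl3001* took 87.4% of the reads at 0 h and 85.8%, 86.4% and 87.9% at 2, 4 and 8 h, with a change of -0.20 at 2 h (-0.35 to -0.06). *rpl3001* fell at 2 h (-0.14 ± 0.05, adjusted p = 0.0165), and *rpl3002* averaged 3020, 3163, 3173 and 2396 normalized reads and fell only at 8 h (-0.33 ± 0.05, adjusted p = 6.75e-09). In *rps15*, *rps1501* took 57.2% at 0 h and 60.6% at 2 h, a change of 0.20 (0.04 to 0.36), and 57.1% at 8 h. At 8 h the interval of the change included 0 in all 4 of these pairs, *rpl12* included.

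The next sets were also picked for the size of their change in ratio, which was largest at 8 h. At that time the unadjusted interval excluded 0 in 6 of 51 pairs. With the larger standard errors given above, all of these intervals included 0, so a divergence of these pairs is uncertain. In *rpl7*, *rpl701* took 68.6%, 68.7%, 70.1% and 71.8% of the reads at 0, 2, 4 and 8 h, and the ratio had moved by 0.22 at 8 h (0.06 to 0.38). The tables name the product of *rpl701* an L7-like subunit of RNase MRP and that of *rpl702* L7b, and the proteins differ at 31 aligned positions. In *rpl10*, which encodes L10, one of the last proteins to join the large subunit, *rpl1001* took 73.6% at 0 h and 76.3% at 8 h (0.21, 0.02 to 0.39). *rpl1001* and *rpl1002* share 35.8% and 40.9% of their 51-base words with other places in the genome. In *rpl19*, *rpl1901* took 54.9% at 0 h and 58.1% at 8 h (0.19, 0.02 to 0.35). In the *rpl8* set the share of *rpl802* was 19.2%, 19.5%, 19.0% and 17.3% at the 4 times, and its ratio to the others had moved by -0.19 at 8 h (-0.41 to 0.04), an interval that includes 0.

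At the other end, *rpl21*, *rps23*, *rpl38* and *rpl24* had the smallest changes in ratio. *rpl2101* took 35.2%, 35.2%, 35.5% and 35.1% of the reads of its pair, and the change at 8 h was -0.01 (-0.16 to 0.14), while both genes fell at 2 and 8 h. *rps23*, whose product lies at the decoding centre, took 54.8% at 0 h and 54.7% at 8 h, with a change of -0.01 (-0.17 to 0.16). *rpl3801* took 43.8% and 43.6%, and *rpl2401* 42.8% and 43.2%, at 0 and 8 h.

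**Figure D5:**
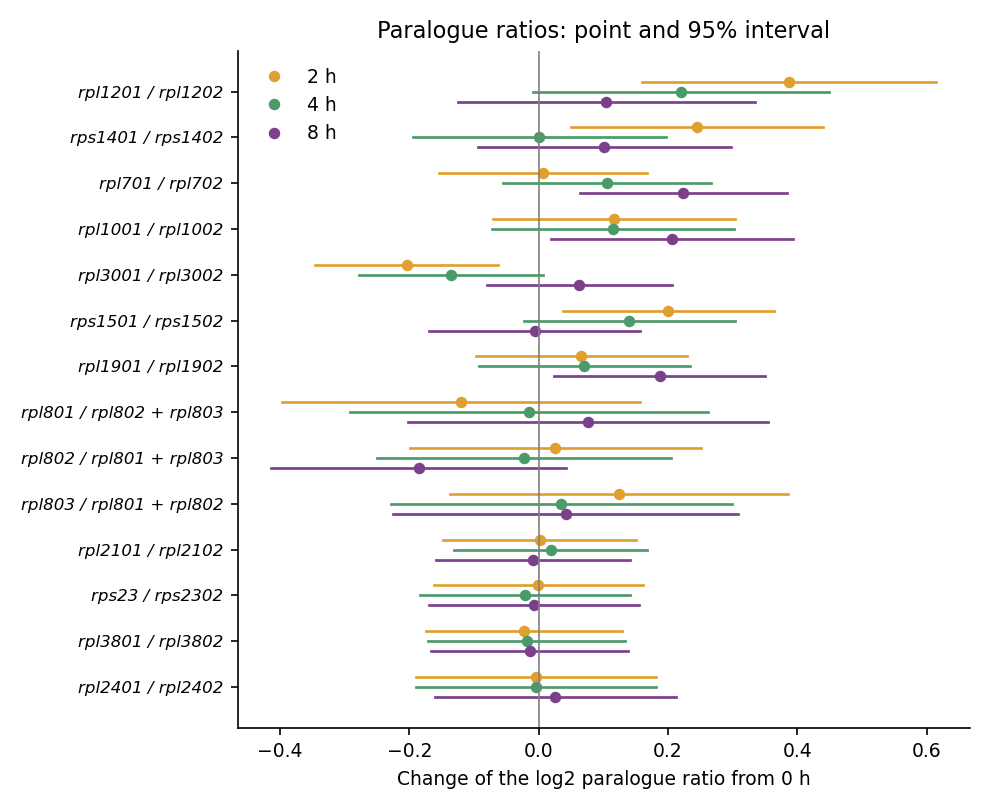
Change from 0 h in the log2 ratio of a gene to its paralogue or paralogues (horizontal axis) at 2, 4 and 8 h, as a point with its 95% interval, for the 8 sets with the largest and the 4 with the smallest changes. The *rpl12* ratio at 2 h lies farthest from 0, at 0.39, and the 4 lowest sets stay within 0.03 of 0.

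Ribosomal components outside the naming rule moved in the same direction. Of 12 (stalk proteins, ubiquitin fused to a ribosomal protein, and the scaffold *cpc2*), 9, 4 and 11 fell at the later times, where 15.1%, 17.5% and 23.8% of all features did, and 0 rose. The medians were -0.18, -0.09 and -0.27. *rpp203*, an acidic stalk protein, averaged 8054, 6524, 7457 and 6270 normalized reads and fell at 8 h (-0.36 ± 0.08, adjusted p = 4.04e-05). *rpp101*, *rpp202* and *rpp103*, of the same stalk, had 8 h ratios of -0.33, -0.31 and -0.31 and also fell.

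Of 14 listed regulators of ribosomal protein genes and of growth signalling, 13 were found. Of these, 5 rose and 0 fell at 2 h, 8 rose and 0 fell at 4 h, and 5 rose and 1 fell at 8 h, where 18.2%, 20.8% and 26.3% of all features rose. *maf1*, a repressor of RNA polymerase III, averaged 455, 654, 690 and 722 normalized reads and rose at 2 h (0.52 ± 0.07, adjusted p = 8.46e-13), 4 h (0.60 ± 0.07, adjusted p = 1.89e-16) and 8 h (0.67 ± 0.07, adjusted p = 4.57e-21). *sfp1*, whose budding yeast namesake activates ribosomal protein genes, averaged 2431, 2601, 2409 and 2028 normalized reads and fell at 8 h (-0.26 ± 0.07, adjusted p = 0.000765). *ssp2*, the catalytic subunit of AMP-activated kinase, rose at all 3 times, to 0.18 ± 0.04 at 8 h (adjusted p = 1.19e-06). *fhl1*, a forkhead factor whose budding yeast counterpart binds ribosomal protein promoters, rose at 4 h (0.24 ± 0.06, adjusted p = 0.000906) and 8 h (0.17 ± 0.06, adjusted p = 0.0143).

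The 9 antisense RNAs had far fewer reads than the genes they are named after, and their changes were not tested against those of the genes. At 0 h they averaged between 8.65 and 142.7 normalized reads, and 3 rose and 1 fell at 2 h, 1 rose at 4 h, and 2 rose and 1 fell at 8 h. Of all features, 18.2%, 20.8% and 26.3% rose and 15.1%, 17.5% and 23.8% fell at these times. *rpl1002-antisense-1*, chosen after its values were seen, averaged 31.9, 178, 265 and 279 normalized reads and rose at 2 h (2.48 ± 0.20, adjusted p = 5.40e-33), 4 h (3.05 ± 0.20, adjusted p = 8.84e-51) and 8 h (3.13 ± 0.20, adjusted p = 3.92e-54). *rpl1002* itself averaged 12290, 10104, 11208 and 9824 normalized reads and fell at 2 h (-0.28 ± 0.07, adjusted p = 0.000204) and at 8 h (-0.32 ± 0.07, adjusted p = 6.61e-06). The kit marks strand, but none of the sources used here gives the strand setting of the counting step, so reads of a gene and of its antisense partner may not be fully separated. The part of either RNA in the level of the other was not tested.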

How the data were processed

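Per the labels and the study's methods, poly(A)+ RNA was sequenced with a stranded kit in paired-end reads. Reads were aligned by the authors to assembly ASM294v2 (HISAT2 2.1.0) and assigned to PomBase exons (HTSeq 0.10.0), and DESeq2, of a version not given in the sources used here, set 2, 4 and 8 h against 0 h. In the 3 deposited tables the authors give, for each time, the average signal of a feature (counts divided by size factors, 3 libraries a time) and the standard error of the ratio in log2 units. The tables also hold the authors' own fold changes, test scores and p-values, which were not used. The average over all libraries of the authors' fit was as low as 0.571 of the mean of the 4 groups, in 30 features, the ratio of 12 libraries to 21, so 9 further libraries, not analysed here, may have entered the fit and its standard errors.

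Log2 ratios of averages were divided by the deposited standard error, with 2-sided p-values from the normal distribution and Benjamini-Hochberg adjustment over all features averaging 10 or more normalized reads in either group and above 0 in both. For comparisons between later times, a dispersion per feature was solved from the 3 deposited standard errors and gave, with the averages, a new one. As a check, 8 h standard errors computed from the 2 h table came to 0.995 to 1.00 of those deposited, over 4164 features averaging 500 or more (percentiles 1 and 99). For a paralogue ratio, standard errors were combined as independent, with an interval of 1.96 standard errors. Shared sequence is the share of 51-base words in the exons of a gene found elsewhere in the genome. The tests were run on simulated data drawn with the same dispersions that gave their standard errors. Such a run checks the calculation and cannot check the error model. Alternatives changed the filter, pseudocount, scaling, standard error and fold criterion. Calculations used Python 3.11.15 with numpy 2.4.6, pandas 2.3.3, scipy 1.17.1 and Biopython 1.88.

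The members, gene lists and tests were chosen with earlier results of these data known. Named members are the 5 largest changes that passed at each time, the 5 highest and 5 lowest levels per kilobase of coding sequence, the 8 paralogue sets with the largest and 4 with the smallest change in ratio, and up to 4 genes of each other list; exceptions are marked. Sequences, gene lengths and introns come from RefSeq's ASM294v3, whose positions are not given since the authors used ASM294v2. The study calls its libraries biological replicates.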

Additional observations from a re-analysis of the deposited data

Results flagged for a closer look

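Among the 21 members named for the size of their fall or for their level, the change from 0 h differed between 2 h and 8 h in 13, by the test of the 8 h average against the 2 h average, where 20.7% of all features and 47 of 131 members were lower at 8 h. At that time 19.6% of all features and 0 members were higher. All 13 were lower at 8 h, and several of the 21 had been picked for their fall at 8 h. The 13 are large subunit genes, as are 17 of the 21. The log2 ratio of 8 h to 2 h was -0.59 for *rpl4102*, -0.42 for *rpl1201*, -0.40 for *rpl3002*, -0.34 for *rpl4101*, -0.31 for *rpl29*, -0.24 for *rpl2801*, -0.21 for *rpl3702*, -0.20 for *rpl1902*, -0.16 for *rpl3402*, -0.15 for *rpl39*, -0.15 for *rpl702*, -0.14 for *rpl1202* and -0.12 for *rpl1603*. The standard error was 0.11 for *rpl4102*, 0.10 for *rpl1201* and between 0.04 and 0.06 for the others. The adjusted p was lowest for *rpl3002* (4.54e-12) and highest for *rpl1202* (0.0286). *rpl4102*, *rpl4101*, *rpl29* and *rpl39* are among the shortest members, *rpl1201* and *rpl1202* share most of their sequence with each other, and the part of either fact in these values was not tested.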

How the results depend on the processing

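The direction of the members' median at 2, 4 and 8 h held under every alternative. Counts at 4 h depended on scaling: with averages scaled to the same sum over all features, 48 members and 1667 features fell (median -0.12), and with the same sum over features other than members 74 members (44 large, 30 small), 1965 features fell and 771 rose (median -0.14). From 4 h against 2 h these scalings gave 5 and 5 members that fell (4 large and 1 small in the latter), 0 and 0 that rose, medians of 0.033 and 0.039, 1265 and 1143 features that fell, and 248 and 259 that rose. The former gave 1275 features that rose for 8 h against 4 h, and the latter 22 small subunit members that fell for 8 h against 2 h. With standard errors multiplied by 1.5, 11 members fell at 2 h and 0 at 4 h, with 281 and 464 features that fell, 495 and 620 that rose and 968 that rose at 8 h. In that setting 0 members rose for 4 h against 2 h (142 features rose, 141 fell), 31 members fell for 8 h against 4 h (127 features rose, 311 fell) and 22 for 8 h against 2 h (509 rose, 715 fell), and 1, 0 and 0 paralogue pairs had an interval that excluded 0. A 2-fold criterion left 0 members at each time, with 21, 30 and 96 features that fell and 127, 131 and 187 that rose. The other 270 of 321 summary values stayed within 1.5 times or 1 standard error, and of 960 values of 40 named members 42 lost and 31 gained a call, with 0 reversed, 37 of the losses with the larger standard error. Apart from the construction of the larger standard error and the 2-fold criterion, the cause was not tested.

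No paired analysis was possible because the tables hold group averages with no replicate numbers, and leaving out each replicate was not run for the same reason. The standard errors may draw on 9 further libraries. A dispersion per feature solved from the 2 h table also reproduced those at 8 h. The p-values therefore rest on a fitted dispersion and may not measure the spread between these 12 libraries alone. The filter, pseudocount, centring on the median of coding features and the list with stalk proteins added changed no count of members that fell from 0 h by over 1.5 times. Leaving out the 8 members with 30% or more of their 51-base words elsewhere, chosen after seeing the data, left 83, 10 and 114 of 123 that fell. Of all features, 15.1%, 17.5% and 23.8% fell at these times.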
